A study of Danio rerio with 2 samples.

Results

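The genes described here encode splicing factors and proteins of the small nuclear ribonucleoproteins (snRNPs), measured by RNA sequencing in the gonads of zebrafish. They were taken as every row of the deposited testis and ovary table whose gene symbol, case ignored, begins with srsf, hnrnp, snrp, sf3a, sf3b, prpf, lsm or u2af. The rule found 91 of 24539 genes, with 82 distinct symbols. The rule uses names and not measured values, but it was set with earlier results of these data known. The testis library came from adult wild-type zebrafish, and the ovary library likewise; each was made from a pool of 3 adults, with 1 library per organ. The sources used here give no strain, age or treatment. The study's title names sex bias of genes and pathways as its question, and the comparison below is testis against ovary.

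Splicing removes introns from the primary transcript and joins the exons. The spliceosome that does this is built from snRNPs, each a small nuclear RNA bound by a ring of Sm proteins, or of LSm proteins in the case of U6, and by proteins of its own. U1 recognises the start of the intron and U2 its branch point, with the help of U2AF at the intron's end, and the tri-snRNP of U4, U6 and U5 then brings in the catalytic core. SR proteins mostly promote the use of exons, and hnRNP proteins coat the transcript and often oppose them. Testis is known in mammals for a high rate of alternative splicing, and growing oocytes are known to store RNA and protein for the embryo.

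Values are FPKM, fragments normalised to gene length and to the library total, as the authors deposited them, so each value is relative to the total of its library. A call of higher in testis or in ovary needed a ratio of FPKM + 1 of at least 2-fold and at least 1 FPKM in whichever library was higher. Folds in the text are plain ratios of the deposited FPKM, and log2 ratios are taken on FPKM + 1. Since each organ has 1 library, differences have no replicate check and carry no p-value. In whole organs, fewer cells of a type and less RNA per cell cannot be told apart. The tissue labels were checked against markers. The 5 meiotic and sperm markers summed to 1843 FPKM in testis and 16.8 in ovary, and the 7 oocyte markers to 32.6 FPKM in testis and 7783 in ovary, with every marker of both lists past 2-fold. The 6 identifiers written as follicle cell markers, not all of which mark that cell type alone, summed to 143 FPKM in testis and 13.8 in ovary. Of these sums, inha alone gave 137 FPKM in testis and 3.06 in ovary. The 2 called higher in testis were inha and FSHR, and the 3 called higher in ovary were CYP19A1, foxl2l and FOXL2 (ENSDARG00000068417). CYP19A1, the defining aromatase gene, was listed at the floor of 0.01 FPKM in testis and read only 2.04 FPKM in ovary. The 3 Sertoli cell markers summed to 1156 FPKM in testis and 8.72 FPKM in ovary and the 4 Leydig cell markers to 5863 FPKM in testis and 37.7 FPKM in ovary, all called higher in testis. All 15 measured markers of blood, immune cells, endothelium and stroma, and liver and muscle were higher in testis; by list, their sums ran from 136 to 456 FPKM in testis and from 3.81 to 14.1 FPKM in ovary. The part of these cell types in the ratios below was not tested.

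On the deposited scale, splicing genes made up similar shares of both libraries, but their members divided in both directions. Summed over the 91 genes, the level was 8343 FPKM in testis and 9183 FPKM in ovary, which is 1.48% of the testis library and 1.60% of the ovary library. All 91 reached 1 FPKM in at least 1 library: 90 did so in testis and 89 in ovary, and 28 in testis and 32 in ovary reached 100 FPKM. Of the 91, 27 (29.7%) were called higher in testis, 20 (22.0%) higher in ovary, and the other 44 fell short of 2-fold. Among all 19053 genes that reached 1 FPKM, 45.1% were called higher in testis and 16.6% higher in ovary. For the 91 genes the log2 ratio of testis over ovary had a median of 0.02 (quartiles -0.83 and 1.17), against 0.80 for all genes that reached 1 FPKM.

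The genes described here are expressed at a higher level than most, so a second background took only genes with a minimum in each library. Such a minimum also leaves out genes that are low in either organ, so fewer calls are partly built in. The plan had set the minimum on the higher library alone. Over the 5501 genes with at least 10 FPKM in each library, 16.5% were called higher in testis and 21.1% higher in ovary, and the median log2 ratio was -0.10. Of the 91 splicing genes 80 met that minimum; 19 (23.8%) were called higher in testis and 18 (22.5%) higher in ovary, and their median was -0.06. The ovary share thus lay near its background. The split also depended on scaling. Setting the median ratio of all genes to 0, a shift of 0.80, gave 14 testis calls and 36 ovary calls among the splicing genes, a testis share of 28.0% of calls in place of 57.4%. The trimmed mean of log ratios shifted all ratios by 0.98 and gave 13 testis calls and 44 ovary calls, a testis share of 22.8%. Summed levels shift in the same way. Over the 91 genes the log2 ratio of the sums was -0.14 as deposited, and both scalings move it further towards ovary. Counts and medians of families and lists are given on the deposited scale, beside both backgrounds. The median was 0.80 for all genes that reached 1 FPKM and -0.10 for genes with at least 10 FPKM in each library. Not all genes of the families and lists meet the minimum of the second background.

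**Figure D1:**
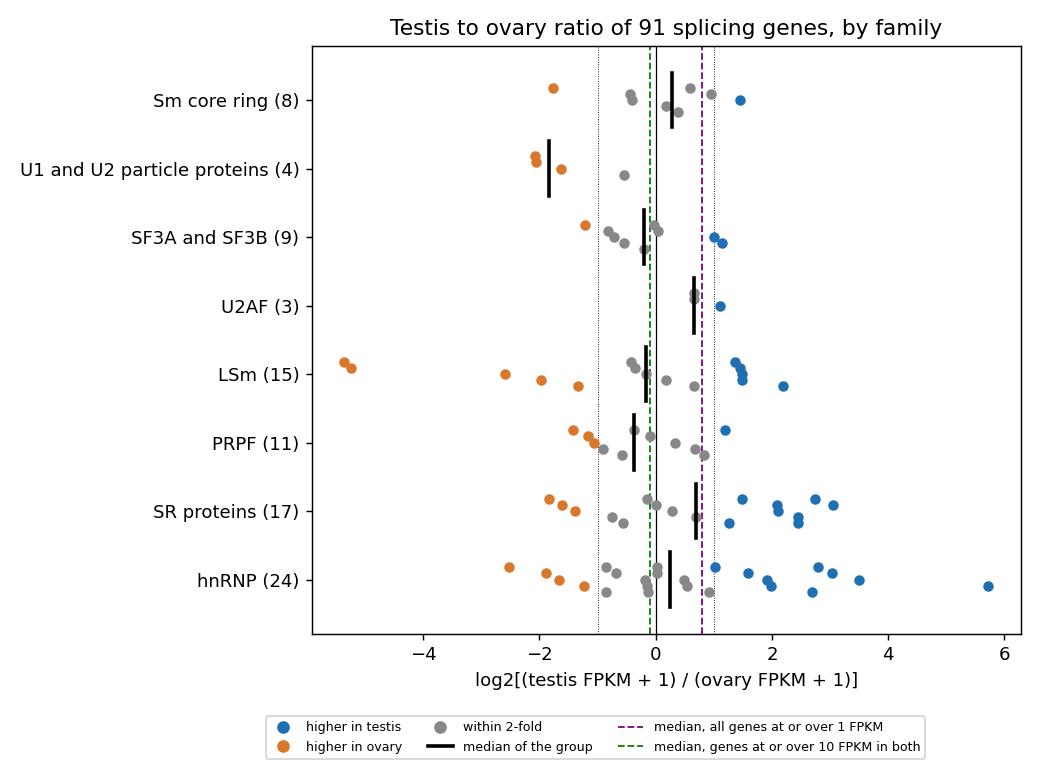
Log2 ratio of testis to ovary, computed on FPKM + 1, for each of the 91 genes (points), by family with the number of genes in brackets; black bars are family medians, dotted lines mark 2-fold and dashed lines the medians of all genes at or over 1 FPKM (0.80) and of genes with at least 10 FPKM in each library (-0.10). The 4 genes labelled U1 and U2 particle proteins lie to the left with a median of -1.84, while SR protein and hnRNP genes spread widely to both sides.

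Genes for the Sm core ring, the proteins that encircle the U1, U2, U4 and U5 RNAs, were close to even on the deposited scale. The 8 genes summed to 1013 FPKM in testis and 974 FPKM in ovary. Of them, 1 (12.5%) was called higher in testis and 1 (12.5%) in ovary, while 6 did not reach 2-fold. The shares were 45.1% and 16.6% among all genes that reached 1 FPKM, and 16.5% and 21.1% among those with at least 10 FPKM in each library. Their median log2 ratio of 0.28 lay below the 0.80 of all genes and above the -0.10 of genes with at least 10 FPKM in each library. It turned to -0.52 with the median scaling and to -0.70 with the trimmed mean scaling, each with no testis call and 3 ovary calls. SNRPB had the highest level of the ring in both organs, 233 FPKM in testis and 310.2 FPKM in ovary. SNRPG stood at 179.7 FPKM in testis against 64.8 FPKM in ovary, 2.77-fold higher in testis. The other call belonged to SNRPD3 (ENSDARG00000013800), with 49.9 FPKM in testis and 173 FPKM in ovary, which is 3.45-fold higher in ovary. A gene that carries the same symbol (ENSDARG00000076283) read 54.5 FPKM in testis and 74.5 FPKM in ovary. Between these lay SNRPE at 131 FPKM in testis and 116 FPKM in ovary, SNRPD1 at 157 FPKM in testis and 104 FPKM in ovary, SNRPD2 at 99.0 FPKM in testis and 75.6 FPKM in ovary and SNRPF at 108 FPKM in testis and 55.6 FPKM in ovary. SNRPF, with a log2 ratio of 0.95, lay just inside 2-fold. Values on this scale are per gene length, so RNA levels of the ring genes can be set side by side within an organ. The proteins of the ring are used in equal number, but only RNA was measured. The order of RNA levels thus gives no order of protein levels. With the SNRPD3 identifiers summed to 104 FPKM in testis and 247 FPKM in ovary, the ring ran in testis upwards from SNRPD2, at 99.0 FPKM, and in ovary upwards from SNRPF, at 55.6 FPKM, with SNRPB at the top of both.

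The 4 genes with snrp symbols outside the ring, which encode some of the proteins of U1 or U2, all had a higher value in ovary. This does not extend to all proteins of those particles, since the 9 SF3A and SF3B genes, also of U2, had a median of -0.19. The 4 snrp genes summed to 182 FPKM in testis and 519 FPKM in ovary. Of the 4, 3 (75.0%) passed the 2-fold rule, with a family median of -1.84. Higher in ovary were 16.6% of all genes that reached 1 FPKM and 21.1% of those with at least 10 FPKM in each library. SNRPA, which binds a loop of U1 RNA, stood at 31.4 FPKM in testis and 135 FPKM in ovary, a 4.31-fold difference. SNRPC, which sits at the start of the intron, stood at 46.2 FPKM in testis and 145 FPKM in ovary, a 3.13-fold difference. SNRPB2, the U2 protein that binds a loop of U2 RNA, stood at 30.8 FPKM in testis and 131 FPKM in ovary, 4.25-fold higher in ovary. Its U2 partner SNRPA1 read 73.4 FPKM in testis and 108 FPKM in ovary and did not reach 2-fold. The third U1 protein, SNRNP70, is outside the symbol rule and read 87.3 FPKM in testis and 66.9 FPKM in ovary, a higher value in testis that did not reach 2-fold (chosen after its values were seen).

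The SF3A and SF3B complexes, which hold U2 at the branch point, were near balance on the deposited scale. Of their 9 genes, 2 (22.2%) were called higher in testis, 1 (11.1%) in ovary and 6 neither, with a median of -0.19. The shares were 45.1% and 16.6% among all genes that reached 1 FPKM, and 16.5% and 21.1% among those with at least 10 FPKM in each library. The balance was lost under both scalings, with no testis call and 4 ovary calls at a median of -0.99 for the median scaling, and none and 6 at -1.17 for the trimmed mean. Their levels added up to 654 FPKM in testis and 743 FPKM in ovary. Within SF3A, SF3A1 stood at 61.0 FPKM in testis and 142 FPKM in ovary, 2.33-fold higher in ovary. Its partners SF3A2 and SF3A3 were almost even, at 103 FPKM in testis and 105 FPKM in ovary and at 45.4 FPKM in testis and 52.0 FPKM in ovary. SF3B6, which contacts the branch point adenosine, stood at 154 FPKM in testis against 68.9 FPKM in ovary, 2.23-fold higher in testis. SF3B1, the scaffold that clamps the branch helix, read 63.4 FPKM in testis and 31.0 FPKM in ovary; its log2 ratio of 1.01 was just past the rule. The other SF3B genes did not reach 2-fold. SF3B2 read 75.9 FPKM in testis and 135 FPKM in ovary, SF3B4 63.0 FPKM in testis and 105 FPKM in ovary, SF3B5 38.9 FPKM in testis and 57.3 FPKM in ovary and SF3B3 49.5 FPKM in testis and 47.9 FPKM in ovary. The 6 SF3B genes summed to 444 FPKM in each organ.

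The U2AF genes encode the heterodimer that binds the end of the intron. All 3 had a higher value in testis on the deposited scale, with a median of 0.67. That lay below the 0.80 of all genes and above the -0.10 of genes with at least 10 FPKM in each library, and it became -0.13 and -0.31 under the median and trimmed mean scalings, with no call left. U2AF2 (ENSDARG00000011740), the large subunit, read 162 FPKM in testis and 74.2 FPKM in ovary, 2.18-fold higher in testis. Its namesake (ENSDARG00000012505) read 33.7 FPKM in testis and 20.8 FPKM in ovary. The small subunit U2AF1 read 162 FPKM in testis and 102 FPKM in ovary. Neither of these last genes reached 2-fold.

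**Figure D2:**
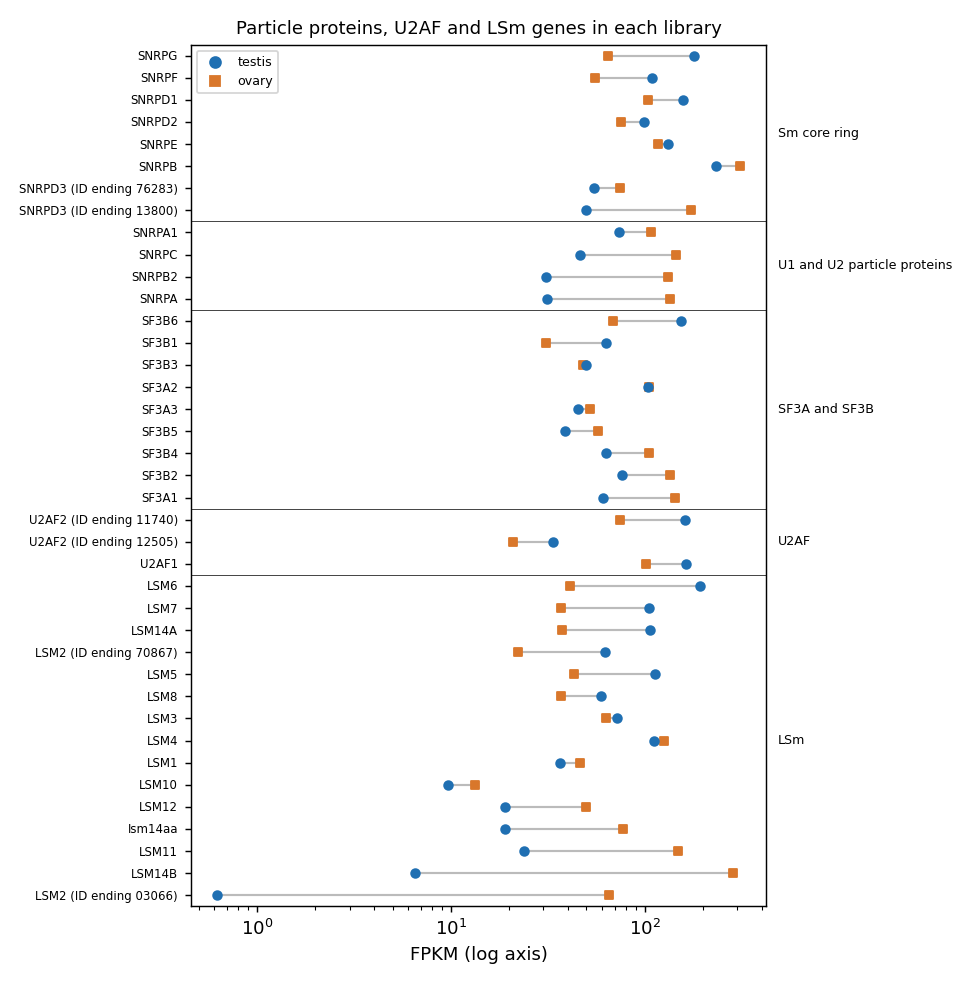
FPKM in testis (circles) and ovary (squares), on a log axis, for the genes of the snRNP particle, U2AF and LSm families, sorted within each family by their ratio. Genes that share a symbol carry the end of their identifier. The widest gaps are those of LSM2 (ENSDARG00000103066; 0.62 FPKM in testis and 65.3 FPKM in ovary) and LSM14B (6.56 FPKM in testis and 285 FPKM in ovary).

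The LSm family had the widest range among the particle proteins, and its parts differed. Of 15 genes, 5 (33.3%) were called higher in testis, 5 (33.3%) higher in ovary and 5 within 2-fold, with a median of -0.17. The split was no longer even under both scalings: the median scaling gave 1 testis call and 7 ovary calls at a median of -0.97, and the trimmed mean 1 and 8 at -1.16. The U6 ring is made of LSm2 to LSm8, and a sister ring with LSm1 in place of LSm8 starts mRNA decay in the cytoplasm. Of the 8 identifiers for LSm2 to LSm8, 4 (50.0%) were called higher in testis and 1 (12.5%) higher in ovary, with a median of 1.01. These shares lay near the 45.1% and 16.6% of all genes that reached 1 FPKM. Among genes with at least 10 FPKM in each library, a minimum that not all 8 identifiers meet, they were 16.5% and 21.1%. Of the 4 testis calls, only that of LSM6 was kept under the median and trimmed mean scalings. LSM6 stood at 192 FPKM in testis against 41.1 FPKM in ovary, 4.67-fold higher in testis. LSM7 stood at 105 FPKM in testis and 36.8 FPKM in ovary, a 2.86-fold difference, and LSM5 at 113 FPKM in testis and 43.2 FPKM in ovary, a 2.61-fold difference. Apart from LSM2, the remaining ring genes were within 2-fold, and they differed in sign. LSM8 read 59.5 FPKM in testis and 37.1 FPKM in ovary, LSM3 71.5 FPKM in testis and 63.0 FPKM in ovary and LSM4 112 FPKM in testis and 126 FPKM in ovary. LSM1 of the decay ring read 36.3 FPKM in testis and 46.5 FPKM in ovary. Leaving out the LSM2 copies, the 6 ring genes summed to 652 FPKM in testis and 347 FPKM in ovary on the deposited scale. On that scale the Sm ring was nearly even.

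The symbol LSM2 is carried by 2 identifiers, which lay in opposite directions. The first (ENSDARG00000070867) had 62.5 FPKM in testis and 22.3 FPKM in ovary, 2.80-fold higher in testis. The second (ENSDARG00000103066) had 0.62 FPKM in testis against 65.3 FPKM in ovary, 105-fold higher in ovary. The first copy gave 99.0% of the LSM2 signal in testis and 25.5% of it in ovary. Together the copies summed to 63.1 FPKM in testis and 87.6 FPKM in ovary.

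LSm proteins outside these rings were mostly higher in ovary. LSM10 and LSM11 belong to the U7 particle, which trims the ends of histone mRNAs and not introns. LSM11 stood at 23.7 FPKM in testis against 147 FPKM in ovary, 6.21-fold higher in ovary, while LSM10 read 9.66 FPKM in testis and 13.3 FPKM in ovary. LSM12, a protein with an LSm domain that is not part of an snRNP, read 19.1 FPKM in testis and 49.9 FPKM in ovary, 2.61-fold higher in ovary. The LSm14 proteins bind mRNA that is held back from translation, a role known from frog oocytes. LSM14B stood at 6.56 FPKM in testis against 285 FPKM in ovary, 43.5-fold higher in ovary. Among the 89 genes above the lowest value of the table in both libraries, only the second LSM2 copy had a larger ratio. The gene lsm14aa stood at 18.9 FPKM in testis and 77.3 FPKM in ovary, 4.08-fold higher in ovary, but LSM14A (ENSDARG00000100553) at 107 FPKM in testis and 37.5 FPKM in ovary, 2.84-fold higher in testis. Without LSM12 and the LSm14 genes, the LSm median was 0.18 in place of -0.17.

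PRPF genes, named after yeast precursor RNA processing mutants, encode tri-snRNP proteins and factors of several steps. Of 11, 1 (9.1%) was called higher in testis, 3 (27.3%) higher in ovary and 7 neither, with a median of -0.37. The shares were 45.1% and 16.6% among all genes that reached 1 FPKM. They were 16.5% and 21.1% among genes with at least 10 FPKM in each library, so the ovary share lay near that background. Under the median scaling no testis call and 6 ovary calls were made at a median of -1.16, and under the trimmed mean none and 7 at -1.35. PRPF8, the U5 protein at the heart of the catalytic core, read 62.2 FPKM in testis and 34.4 FPKM in ovary, and its U5 partner PRPF6 read 56.4 FPKM in testis and 35.0 FPKM in ovary; both ratios were under 2-fold. Of the proteins of U4 and U6, PRPF31 stood at 21.9 FPKM in testis and 50.5 FPKM in ovary, 2.31-fold higher in ovary. PRPF4 stood at 28.8 FPKM in testis and 60.9 FPKM in ovary, 2.12-fold higher in ovary, and PRPF3, which binds PRPF4, read 63.8 FPKM in testis and 50.2 FPKM in ovary. PRPF38A, which joins with the tri-snRNP before activation, stood at 24.9 FPKM in testis and 68.0 FPKM in ovary, 2.73-fold higher in ovary. The gene prpf38b, which encodes another protein, read 68.7 FPKM in testis and 88.8 FPKM in ovary. PRPF39, an accessory protein of U1 in yeast, was the 1 call towards testis, with 86.3 FPKM in testis and 37.4 FPKM in ovary, 2.31-fold. Under 2-fold were PRPF19, a ubiquitin ligase of the Prp19 complex, at 47.4 FPKM in testis and 71.4 FPKM in ovary, and the second-step factor PRPF18, at 32.0 FPKM in testis and 60.8 FPKM in ovary. PRPF18, with a log2 ratio of -0.90, lay just outside the rule and PRPF4, with -1.06, just past it.

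Regulators of splice site choice, the SR protein and hnRNP genes, differed among themselves about as widely as the LSm genes. The interquartile range of the log2 ratio was 2.67 for SR protein genes, 2.65 for hnRNP genes and 2.77 for both together. It was 3.06 for the LSm family and 1.69 for all 50 genes outside the regulators. Over all genes that reached 1 FPKM it was 2.31, and over genes with at least 10 FPKM in each library 1.49. The 80 splicing genes that meet this minimum had a range of 1.78. Of the 41 regulators, 17 (41.5%) were called higher in testis and 7 (17.1%) higher in ovary, close to the 45.1% and 16.6% of all genes that reached 1 FPKM. Among genes with at least 10 FPKM in each library the shares were 16.5% and 21.1%, so the nearness holds for the first background only. Not all regulators meet the minimum of the second. Of the other 50, 10 (20.0%) were called higher in testis and 13 (26.0%) higher in ovary.

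More SR protein genes were called higher in testis than in ovary, and their summed level was alike on the deposited scale. Of 17, 8 (47.1%) were called higher in testis, 3 (17.6%) higher in ovary and 6 within 2-fold. These shares were near the 45.1% and 16.6% of all genes that reached 1 FPKM. Among genes with at least 10 FPKM in each library, a minimum that not all SR protein genes meet, they were 16.5% and 21.1%. The sums were 1402 FPKM in testis and 1288 FPKM in ovary. Their median log2 ratio of 0.69 lay below the 0.80 of all genes and above the -0.10 of genes with at least 10 FPKM in each library. It turned to -0.11 under the median scaling, with 6 testis calls and 5 ovary calls, and to -0.29 under the trimmed mean, with 6 of each. With copies summed, an alternative chosen after seeing the data, 10 genes remained, with 2 testis calls, 1 ovary call and a median of -0.07. The genes with the highest mean level over both organs were srsf7a, srsf2a and SRSF11. The gene srsf7a had 155 FPKM in testis and 228 FPKM in ovary, srsf2a 132 FPKM in testis and 224 FPKM in ovary, and SRSF11 111 FPKM in testis and 123 FPKM in ovary. All 3 had the higher value in ovary and none reached 2-fold.

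SRSF1, the founding SR protein, which promotes the use of exons through enhancer sequences, is carried by 2 identifiers with opposite calls. The first (ENSDARG00000017843) stood at 115 FPKM in testis against 13.0 FPKM in ovary, 8.86-fold higher in testis. The second (ENSDARG00000057691) stood at 38.4 FPKM in testis against 140.2 FPKM in ovary, 3.65-fold higher in ovary. The summed level was 154 FPKM in testis and 153 FPKM in ovary, while the first copy made up 75.0% of it in testis and 8.49% in ovary. SRSF6 showed the same kind of division. One identifier (ENSDARG00000016783) read 80.6 FPKM in testis and 18.1 FPKM in ovary, 4.45-fold higher in testis, and the other (ENSDARG00000013729) read 52.3 FPKM in testis and 163 FPKM in ovary, 3.11-fold higher in ovary. Their sum was 133 FPKM in testis and 181 FPKM in ovary.

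For srsf2 and srsf7 the copies differed in sign, but only the minor copy passed the rule. The gene srsf2b stood at 63.5 FPKM in testis against 8.67 FPKM in ovary, 7.32-fold higher in testis, and srsf2a was the more abundant copy in both organs. SRSF7 (ENSDARG00000101057) stood at 45.1 FPKM in testis and 18.4 FPKM in ovary, 2.46-fold higher in testis, beside the more abundant srsf7a. In the SRSF5 set both copies were higher in testis by nearly the same ratio. The gene srsf5a stood at 170.4 FPKM in testis and 30.3 FPKM in ovary, 5.63-fold, and SRSF5 (ENSDARG00000027734) at 55.4 FPKM in testis and 9.36 FPKM in ovary, 5.91-fold.

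Among the SRSF3 identifiers, which encode the smallest SR protein, all 3 had the higher value in testis. One (ENSDARG00000025397) read 85.3 FPKM in testis and 29.9 FPKM in ovary, 2.85-fold higher in testis. Another (ENSDARG00000059360) read 94.0 FPKM in testis and 58.0 FPKM in ovary and did not reach 2-fold. The gene srsf3a was low, at 3.36 FPKM in testis, and was listed at 0.01 FPKM, the lowest value of the table, in ovary. Outside these sets, srsf10b, whose product represses splicing when dephosphorylated, read 27.1 FPKM in testis and 72.5 FPKM in ovary, 2.67-fold higher in ovary. SRSF4 read 123 FPKM in testis and 101 FPKM in ovary and SRSF9 50.3 FPKM in testis and 50.3 FPKM in ovary, so that neither reached 2-fold.

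**Figure D3:**
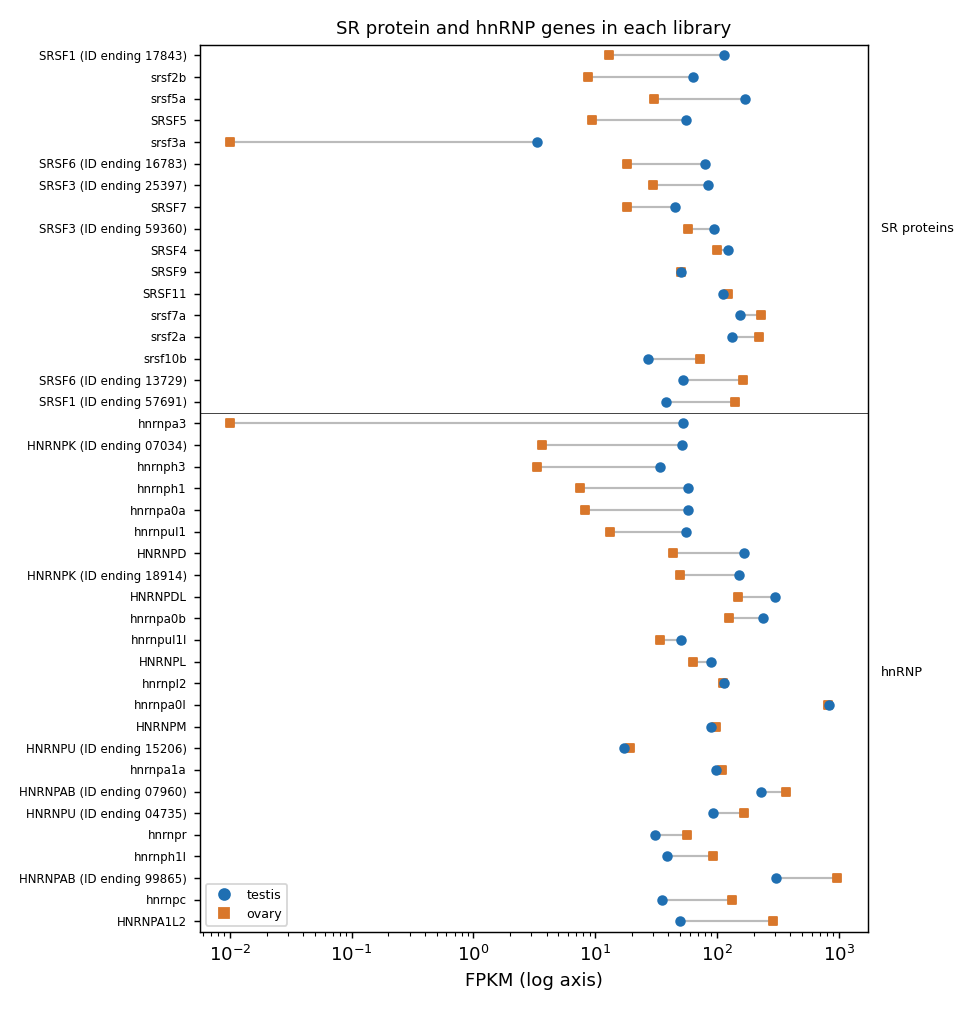
FPKM in testis (circles) and ovary (squares), on a log axis, for the 17 SR protein and 24 hnRNP genes, sorted by their ratio within each family. Genes that share a symbol carry the end of their identifier. The squares at 0.01 FPKM are hnrnpa3 and srsf3a, which are listed at the lowest value of the table in ovary; hnrnpa0l and HNRNPAB (ENSDARG00000099865) are the most abundant genes.

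The hnRNP genes held the most abundant transcripts of the group. The 24 genes summed to 3242 FPKM in testis and 3744 FPKM in ovary, 0.577% and 0.654% of those libraries. Of them, 9 (37.5%) were called higher in testis, 4 (16.7%) higher in ovary and 11 within 2-fold. The shares were 45.1% and 16.6% among all genes that reached 1 FPKM. Among genes with at least 10 FPKM in each library, a minimum that not all hnRNP genes meet, they were 16.5% and 21.1%. The hnRNP genes below it, namely hnrnpa3, hnrnph3, hnrnph1, hnrnpa0a and HNRNPK (ENSDARG00000007034), were all called higher in testis. The family median of 0.25 turned to -0.55 under the median scaling, with 7 calls each way. Under the trimmed mean it was -0.73, with 6 testis calls and 10 ovary calls. The gene hnrnpa0l was the most abundant in testis, where it ranked 60 of all genes, and it was even between organs at 828 FPKM in testis and 817 FPKM in ovary. HNRNPAB (ENSDARG00000099865), whose frog relative binds localised mRNA in oocytes, was the most abundant in ovary, where it ranked 79. It stood at 306 FPKM in testis against 977 FPKM in ovary, 3.19-fold higher in ovary. Another identifier with that symbol (ENSDARG00000007960) read 229.5 FPKM in testis and 367 FPKM in ovary and did not reach 2-fold.

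The other hnRNP genes called higher in ovary were HNRNPA1L2, hnrnpc and hnrnph1l. HNRNPA1L2 carries the human-style symbol of an A1-like protein, and it stood at 49.6 FPKM in testis against 289.5 FPKM in ovary, 5.83-fold higher in ovary. The gene hnrnpa1a, whose product is a classical silencer of exons, was nearly even at 97.7 FPKM in testis and 111 FPKM in ovary. The gene hnrnpc, whose product binds uridine tracts and competes with U2AF at cryptic sites, stood at 35.5 FPKM in testis and 133 FPKM in ovary, 3.76-fold higher in ovary. The gene hnrnph1l read 39.1 FPKM in testis and 92.7 FPKM in ovary, 2.37-fold higher in ovary. In contrast, hnrnph1, whose product binds runs of guanine, read 57.9 FPKM in testis and 7.45 FPKM in ovary, 7.77-fold higher in testis. As with SRSF1, the sum of this set was alike on the deposited scale, at 97.0 FPKM in testis and 100.2 FPKM in ovary.

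Several hnRNP genes had far less signal in the ovary library. The gene hnrnpa3 stood at 52.3 FPKM in testis and was listed at 0.01 FPKM in ovary, so no fold is given. HNRNPK (ENSDARG00000007034), which binds cytidine-rich RNA, stood at 51.5 FPKM in testis against 3.67 FPKM in ovary, 14.0-fold higher in testis. The second HNRNPK identifier (ENSDARG00000018914) stood at 152 FPKM in testis and 50.2 FPKM in ovary, 3.03-fold higher in testis, so both copies were called the same way. The gene hnrnph3 stood at 34.4 FPKM in testis against 3.34 FPKM in ovary, 10.3-fold higher in testis. The gene hnrnpa0a stood at 57.9 FPKM in testis and 8.19 FPKM in ovary, 7.07-fold higher in testis, whereas hnrnpa0b read 239.6 FPKM in testis and 126 FPKM in ovary and did not reach 2-fold.

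HNRNPD, whose product binds AU-rich elements and shortens the life of mRNAs, stood at 168 FPKM in testis and 43.9 FPKM in ovary, 3.83-fold higher in testis. HNRNPDL, a related protein that also binds such RNA, stood at 303 FPKM in testis and 149 FPKM in ovary, 2.03-fold higher in testis. These genes are neighbours among protein-coding genes in the RefSeq table of assembly GRCz12tu, which was used for gene order only. Of 68 members found there by a symbol that 1 identifier carries, 2 further pairs were neighbours: hnrnpa0b with hnrnpa0l, and srsf7a with HNRNPL. Neither of those pairs holds a called gene. The gene hnrnpul1 stood at 55.3 FPKM in testis and 13.2 FPKM in ovary, 4.18-fold higher in testis, and hnrnpul1l at 50.4 FPKM in testis and 34.4 FPKM in ovary, under 2-fold.

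The remaining hnRNP genes differed by less than 2-fold. HNRNPU, a scaffold protein of chromatin and RNA, had 92.5 FPKM in testis and 167 FPKM in ovary for one identifier (ENSDARG00000004735) and 17.1 FPKM in testis and 19.2 FPKM in ovary for the other (ENSDARG00000015206). HNRNPM read 89.4 FPKM in testis and 98.2 FPKM in ovary, and hnrnpr read 31.0 FPKM in testis and 56.7 FPKM in ovary. HNRNPL, a reader of CA repeats, stood at 90.1 FPKM in testis and 64.2 FPKM in ovary, and its relative hnrnpl2 at 114 FPKM in testis and 112 FPKM in ovary.

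Copies of one gene were examined as sets, because zebrafish descend from a fish lineage that duplicated its genome and kept many genes as pairs. A set held identifiers that carry one symbol, or symbols that differ by a closing a, b or l; separate genes that share such endings, like PRPF38A and prpf38b, were kept apart. There were 16 sets with 34 genes. In 5 sets (SRSF1, SRSF6, hnrnph1, LSM2 and LSM14A) copies were called in opposite directions, and in 7, srsf2 and srsf7 added, the ratios differed in sign. Of the 34 copies, 47.1% were called higher in testis and 20.6% higher in ovary. Not all of these copies reach 10 FPKM in each library. The shares were 45.1% and 16.6% among all genes that reached 1 FPKM, and 16.5% and 21.1% among those with at least 10 FPKM in each library. At such shares unrelated genes would also be called in opposite directions at times, and how often was not computed. The most abundant copy was another one in testis than in ovary in 7 sets, namely the 5 with opposite calls, SNRPD3 and hnrnpul1. On the deposited scale the summed level was within 2-fold in 9 of 16 sets, among them each of the 5 opposite ones. There testis over ovary was 1.00 for SRSF1, 0.73 for SRSF6, 0.97 for hnrnph1, 0.72 for LSM2 and 1.09 for LSM14A. The ratio of a sum lies between those of its copies, so near-even sums of opposite copies are partly built in. The median and trimmed mean scalings shift these ratios towards ovary by 0.80 and 0.98 log2 units. Under both, the sums of SRSF6 and LSM2 pass 2-fold, and under the trimmed mean that of hnrnph1 also does. On the deposited scale the median size of the log2 ratio, sign ignored, was 1.53 over the 34 copies and 0.82 over the 57 other genes. It was 1.255 over all genes that reached 1 FPKM. Over genes with at least 10 FPKM in each library, a minimum that not all copies meet, it was 0.752. These sizes are measured from the deposited 0, which both scalings move, so they do not show that copies diverge more than other genes. With copies summed, an alternative chosen after seeing the data, 73 genes remained, with 16 testis calls and 15 ovary calls.

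The gap between the log2 ratios of copies within a set is not moved by a shift of all ratios. It was 6.80 log2 units for LSM2, 4.89 for SRSF1, 4.03 for hnrnph1, 3.71 for SRSF6, 3.49 for srsf2 and 3.46 for LSM14A, against 0.01 for SRSF5. The calls do depend on it: under both scalings srsf1, srsf6 and hnrnph1 still had opposite calls, srsf2 gained them, and LSM2 and LSM14A lost them, leaving 4 sets. Where copies are alike in sequence, the authors' counting could divide reads between them in either way, so the level of each copy is less certain than the sum of the set. No sequence of the copies was used here. The identifiers that share a symbol could not be told apart by name.

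**Figure D4:**
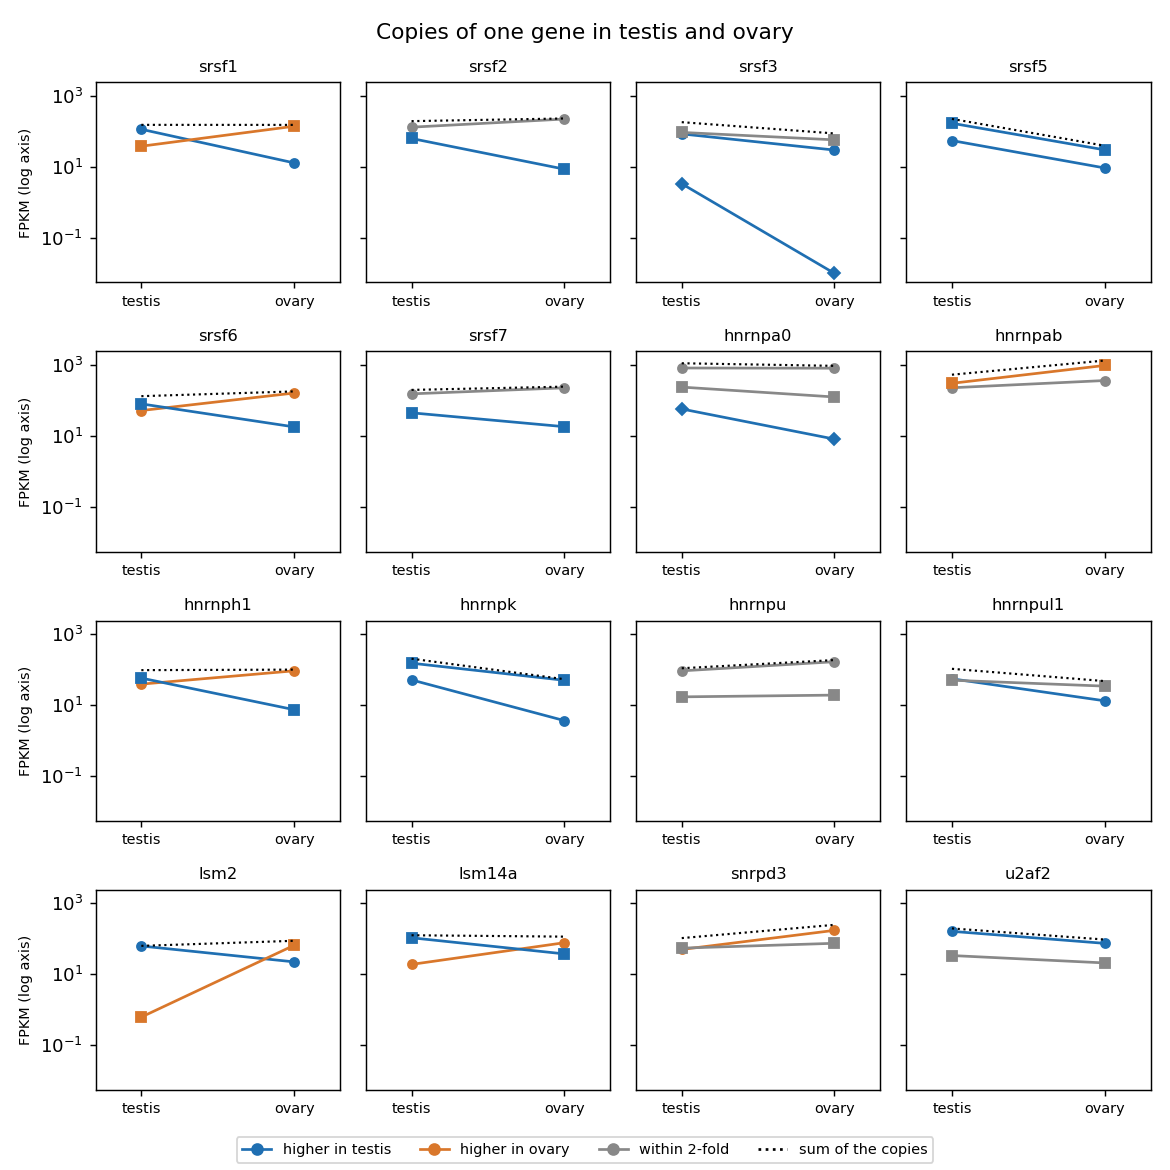
FPKM in testis (left) and ovary (right), on a log axis, for the copies in each of 16 sets; each solid line is 1 identifier, coloured by its call, and the dotted line is the sum of the set. Solid lines cross in the panels of srsf1, srsf6, hnrnph1, lsm2 and lsm14a, where the dotted line stays within 2-fold. They also cross in snrpd3 and hnrnpul1, where the sums differ by more than 2-fold (testis over ovary 0.42 and 2.22). In srsf5 and hnrnpk both copies lie higher in testis.

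Genes of the pathway outside the symbol rule gave the setting. Of 133 symbols written in 6 lists, 121 were matched, to 124 identifiers, of which 123 reached 1 FPKM. Of these, 21 were called higher in testis, 25 higher in ovary and 77 within 2-fold, with a median of -0.12. Among all genes that reached 1 FPKM, 45.1% were called higher in testis and 16.6% higher in ovary. With at least 10 FPKM in each library the shares were 16.5% and 21.1%. The counts of each list can be set beside both backgrounds, but not all listed genes meet the minimum of the second. The list of the SMN complex and Sm assembly lay furthest towards ovary by its median. This machinery loads Sm rings onto snRNAs in the cytoplasm, and 10 of its 14 genes were called higher in ovary and none in testis, with a median of -1.10. GEMIN7, a subunit of the complex, stood at 13.2 FPKM in testis and 97.3 FPKM in ovary. The central gene smn1 stood at 69.8 FPKM in testis and 148 FPKM in ovary, and PHAX, which exports snRNAs from the nucleus, at 53.5 FPKM in testis and 113 FPKM in ovary.

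Factors of the Prp19 complex and the catalytic steps were mostly even, with 2 of 28 called higher in testis, 5 higher in ovary and a median of -0.34. DDX39A (ENSDARG00000015111), an RNA helicase of splicing and mRNA export, stood at 128 FPKM in testis and 274 FPKM in ovary. CWC15 read 106 FPKM in testis and 112 FPKM in ovary. The ends of the list were ddx39b at 65.6 FPKM in testis and 4.03 FPKM in ovary and CWC22, which brings the exon junction complex to the spliceosome, at 23.7 FPKM in testis and 82.1 FPKM in ovary. Of 27 other snRNP proteins and early factors, there were 5 testis calls and 3 ovary calls, and the median was 0.14. PUF60 read 108 FPKM in testis and 106 FPKM in ovary and SNRNP27 128 FPKM in testis and 74.8 FPKM in ovary. The largest ratios were those of rbm39b, at 85.7 FPKM in testis and 28.5 FPKM in ovary, and SNRNP35, a protein of the minor spliceosome, at 21.2 FPKM in testis and 83.8 FPKM in ovary. Some U5 proteins were chosen after their values were seen. EFTUD2 read 109 FPKM in testis and 37.0 FPKM in ovary and SNRNP200 37.0 FPKM in testis and 21.1 FPKM in ovary. Both had the higher value in testis, as did PRPF8, PRPF6 and DDX23, the last at 40.3 FPKM in testis and 21.2 FPKM in ovary. That sign was the more common one on the deposited scale, held by 12553 of the 19053 genes that reached 1 FPKM. SNRNP40 read 28.2 FPKM in testis and 49.1 FPKM in ovary, and txnl4a was even at 53.9 FPKM in each organ.

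SR-related proteins and SR kinases had 12 of 15 genes within 2-fold and a median of -0.02. The genes srrm1 and TRA2A were the most abundant, at 98.0 FPKM in testis and 68.0 FPKM in ovary and at 56.7 FPKM in testis and 99.0 FPKM in ovary. CLK2, a kinase that phosphorylates SR proteins, is carried by 2 identifiers, which held the largest ratio in each direction: ENSDARG00000062954 read 45.2 FPKM in testis and 11.2 FPKM in ovary, and ENSDARG00000059870 read 19.4 FPKM in testis and 49.2 FPKM in ovary. The exon junction complex, which marks joined exons, had 1 of 7 genes past the rule, RBM8A at 454 FPKM in testis and 176 FPKM in ovary; acin1a read 141 FPKM in testis and 161 FPKM in ovary.

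Tissue-linked regulators of alternative splicing spread the most among the 6 lists. Of 32 genes that reached 1 FPKM, 11 were called higher in testis and 6 higher in ovary, with a median of 0.46 and quartiles of -0.45 and 1.71. Over all genes that reached 1 FPKM the shares called were 45.1% and 16.6%, so these counts are not particular to the list. MBNL2, of the muscleblind family, stood at 45.6 FPKM in testis and 0.58 FPKM in ovary, and ESRP2, a regulator of epithelial splicing, at 3.83 FPKM in testis and 20.2 FPKM in ovary. The genes khdrbs1a and KHDRBS1 had the highest mean levels and were even, at 363 FPKM in testis and 340.3 FPKM in ovary and at 119.8 FPKM in testis and 132 FPKM in ovary. The identifiers of PTBP1, the polypyrimidine tract binding protein, were chosen after their values were seen. One (ENSDARG00000019362) read 38.7 FPKM in testis and 2.92 FPKM in ovary and the other (ENSDARG00000031907) 13.0 FPKM in testis and 41.4 FPKM in ovary, calls in opposite directions.

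**Figure D5:**
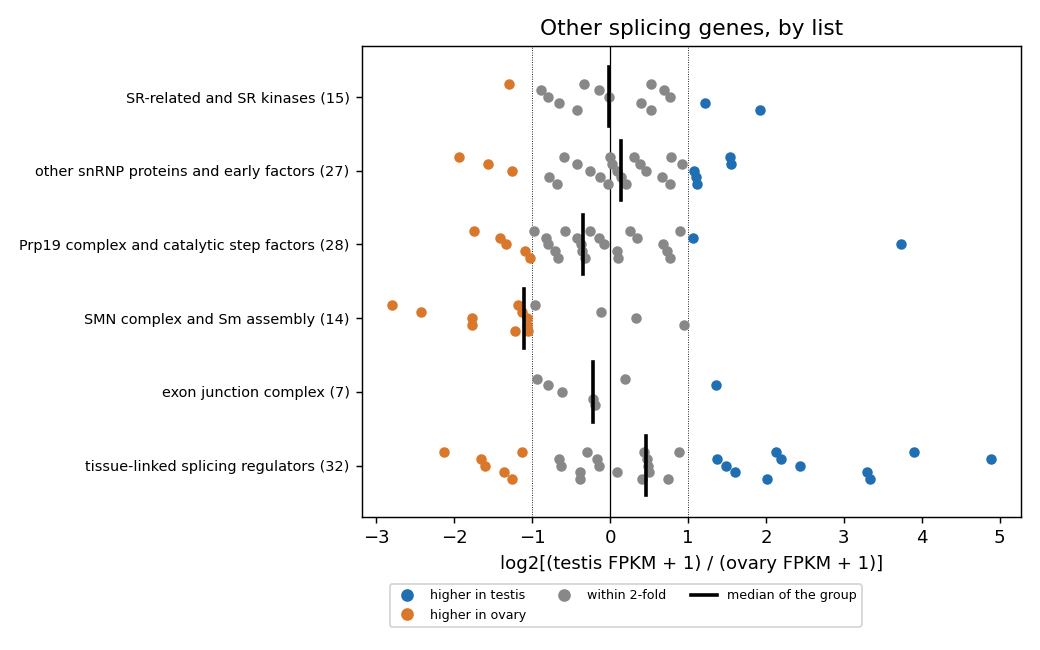
Log2 ratio of testis to ovary, computed on FPKM + 1, for 123 splicing genes outside the symbol rule that reached 1 FPKM, in 6 lists with the number of genes in brackets; black bars are list medians and dotted lines mark 2-fold. The list of the SMN complex and Sm assembly has its median at -1.10 and no gene called higher in testis, and the tissue-linked regulators spread to both sides.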

How the data were processed

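RNA of the testis and the ovary was sequenced on the BGISEQ-500 platform, 1 pooled library per organ, per the labels' protocols. The submitters' processing notes name HISAT, Bowtie2, RSEM and the build GRCz10; for versions, settings, strand handling and annotation, nothing is stated in the labels. The authors deposited FPKM, per the file headers, with 2 decimals and a lowest value of 0.01, which 430 genes hold in testis and 3540 in ovary. Totals were 562394 FPKM in testis and 572635 FPKM in ovary. The table holds no read counts and the absolute depth is unknown, so no interval is given. Of 1205 genes with low values, 72, 61 and 35 had ratios at 1, 2 and 3 times 1.09. A window of equal width between the first steps held 10. The value 1.09 was the tried ratio with the largest sum of these counts, so their height is partly built in. With that limit, 1 read appears to weigh 1.09 times as much in the testis column as in the ovary column.

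Symbols came from a table that named 21881 identifiers. The log2 ratio used a pseudocount of 1 and understates the ratio of low genes; folds in the text are plain ratios of FPKM. The code for the classes was run on simulated data with changes far larger than 2-fold, small assumed noise and the trimmed mean scaling. That run cannot show how reliable the calls made here are, since the noise of these libraries is unknown. Members and lists were chosen with earlier results of these data known; all members could be named, except 1 whose own values are not reported here, and from each other list the 2 most abundant genes and the largest called ratio each way. In the lists, a symbol that was not found was also tried without a closing a or b. Identifiers that share a symbol were added to the copy sets after the files were seen. No planned protein identity was computed, since no protein sequences were used. Alternatives were other pseudocounts, minimums, folds, scalings and member rules. Python 3.11.15, pandas 2.3.3 and numpy 2.4.6 were used.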

Additional observations from a re-analysis of the deposited data

How the results depend on the processing

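The 27 testis calls and 20 ovary calls among the splicing genes, and the median log2 ratio of 0.02, were recomputed under 10 other settings. Both counts stayed within 1.5 times under pseudocounts of 0.1 and 5, no minimum, a minimum of 5 FPKM, rescaling without the most abundant genes, and leaving out shared symbols or LSM12 and the LSm14 genes. The 4-fold rule gave 12 higher in testis and 6 higher in ovary, by construction fewer. With the trimmed mean of log ratios the counts were 13 and 44 and the median -0.96; with the median log2 ratio set to 0 they were 14 and 36 and -0.78. The first scaling shifts all ratios by 0.98 and the second by 0.80. Those 2 scalings kept 13 and 14 of the 27 testis calls and all 20 ovary calls. The median was 0.0094 with a minimum of 5 FPKM and -0.12 after rescaling without the most abundant genes. Summing copies, chosen after seeing the data, gave 16 testis calls and a median of -0.10. No paired analysis was possible because each organ has 1 library, and for the same reason no library could be left out.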
